A study of Danio rerio with 1536 samples.

Results

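Homeodomain transcription factors of the LIM, POU, PAX, NKX, IRX, MEIS, PBX and ONECUT families were measured in single neurons of the zebrafish spinal cord. The set was taken by symbol from both count tables: every gene whose name begins with lhx, lmx, pou1f to pou6f, pax, nkx, irx, meis, pbx or onecut, in upper or lower case, without nkx6.1 and the pbxip genes. This gave 94 of the 32519 genes in the tables, namely 17 POU, 16 NKX, 15 PAX, 12 LHX, 11 IRX, 6 PBX, 5 MEIS, 5 ONECUT and 4 LMX genes and 3 genes that are only named after PAX (paxbp1, paxip1 and paxx). The rule used symbols only, with no measured value. All 94 had at least 1 read in the passing cells, with between 2 and 172308 reads per gene, a median of 600.5, and 17 genes below 100 reads.

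Cells came from 2 transgenic lines sampled at 7 weeks, from fish of either sex with no further treatment. Tg(isl1a:GFP) carries GFP under the isl1a promoter, which labels motoneurons (MNs) and also other neurons, and Tg(chx10:GFP) labels V2a interneurons (INs). Each line gave 2 plates of sorted GFP-positive cells, each plate made from a pool of 6 to 10 spinal cords, and the plate was the replicate. Between cells of the 2 lines, p-values measure the spread between pools and plates. Between types or clusters of the same plates, with the plate as a block, they measure how far a difference varied between the 2 plates. Below, a pair of values for a group is always plate 1 and then plate 2, and levels are CPM, a gene's reads, summed over the cells of a plate or of a cluster on a plate, scaled to an equal total of reads on genes in every sum. Levels were compared between groups for the same gene and were not ranked between genes, since they are not corrected for transcript length.

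In the developing ventral spinal cord, NKX, PAX and IRX proteins set up progenitor domains under opposing signals from the floor plate and the roof plate. LIM homeodomain factors (lhx, lmx and isl genes) then act in combinations, bound together by the adaptor Ldb1: Lhx3 with Isl1 specifies MNs, and Lhx3 without Isl1 specifies V2 INs, from work in mouse and chick. MEIS and PBX proteins belong to the TALE class and act as cofactors of HOX proteins, while POU and ONECUT factors divide mature MNs and INs into subtypes.

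Of 1536 wells, 1247 passed the limits of 2000 to 9000 detected genes and at most 30% of reads on the ERCC spike-in RNAs: 259 and 363 on the isl1a plates and 300 and 325 on the chx10 plates. Passing cells held between 10850 and 1069005 reads on genes, with plate medians from 324159 to 436783. The first isl1a plate had 114 wells over the spike-in limit and the second 1. Counts of the second isl1a plate were deposited apart, while those of the first were merged with both chx10 plates. The median passing cell had 1.566% and 0.075% of reads on spike-ins on the isl1a plates. The part of this in differences between the 2 isl1a plates was not tested. Spike-ins took 3.17% of reads and GFP 0.517%. Without molecular identifiers, reads are not independent molecules, and an interval on a share of cells speaks for counting error alone. Of the 94 symbols, 37 matched their identifier directly, 34 were assigned because the other copy of the gene was accounted for, and 23 could not be assigned to a or b copy. Where a pair of rows shares a symbol, the plain symbol stands below for the following rows: lmx1b for ENSDARG00000068365, irx3 for ENSDARG00000101076, irx1 for ENSDARG00000101831, pax2 for ENSDARG00000028148 and pax6 for ENSDARG00000103379. Near-identical copies can share or lose uniquely mapped reads, so the split between such a pair is uncertain.

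Clusters were rebuilt from genes other than the members and named afterwards from marker genes. The marker lists share isl1a, mnx1, sox14, tal2 and shox2 with the lineage factors given below. Differences in these genes are therefore no separate evidence for the names. Among the isl1a cells, 123 and 213 were MN-like, with slc18a3, the vesicular acetylcholine transporter, at 1531 and 1511 CPM. Cells resembling cerebrospinal fluid-contacting neurons (CSF-like below, 75 and 97 cells) had pkd2l1, their channel marker, at 11730 and 10940 CPM. Serotonergic-like cells (31 and 29) had tph2, the rate-limiting enzyme of serotonin synthesis, at 23020 and 17540 CPM. A cluster of 30 and 24 cells was led by the vesicular glutamate transporter slc17a6 at 927 and 732 CPM. The values of slc18a3 and slc17a6 each sum 2 rows, whose copies were not told apart. The label of these plates as motoneurons therefore covered 336 MN-like cells of 622.

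**Figure D1:**
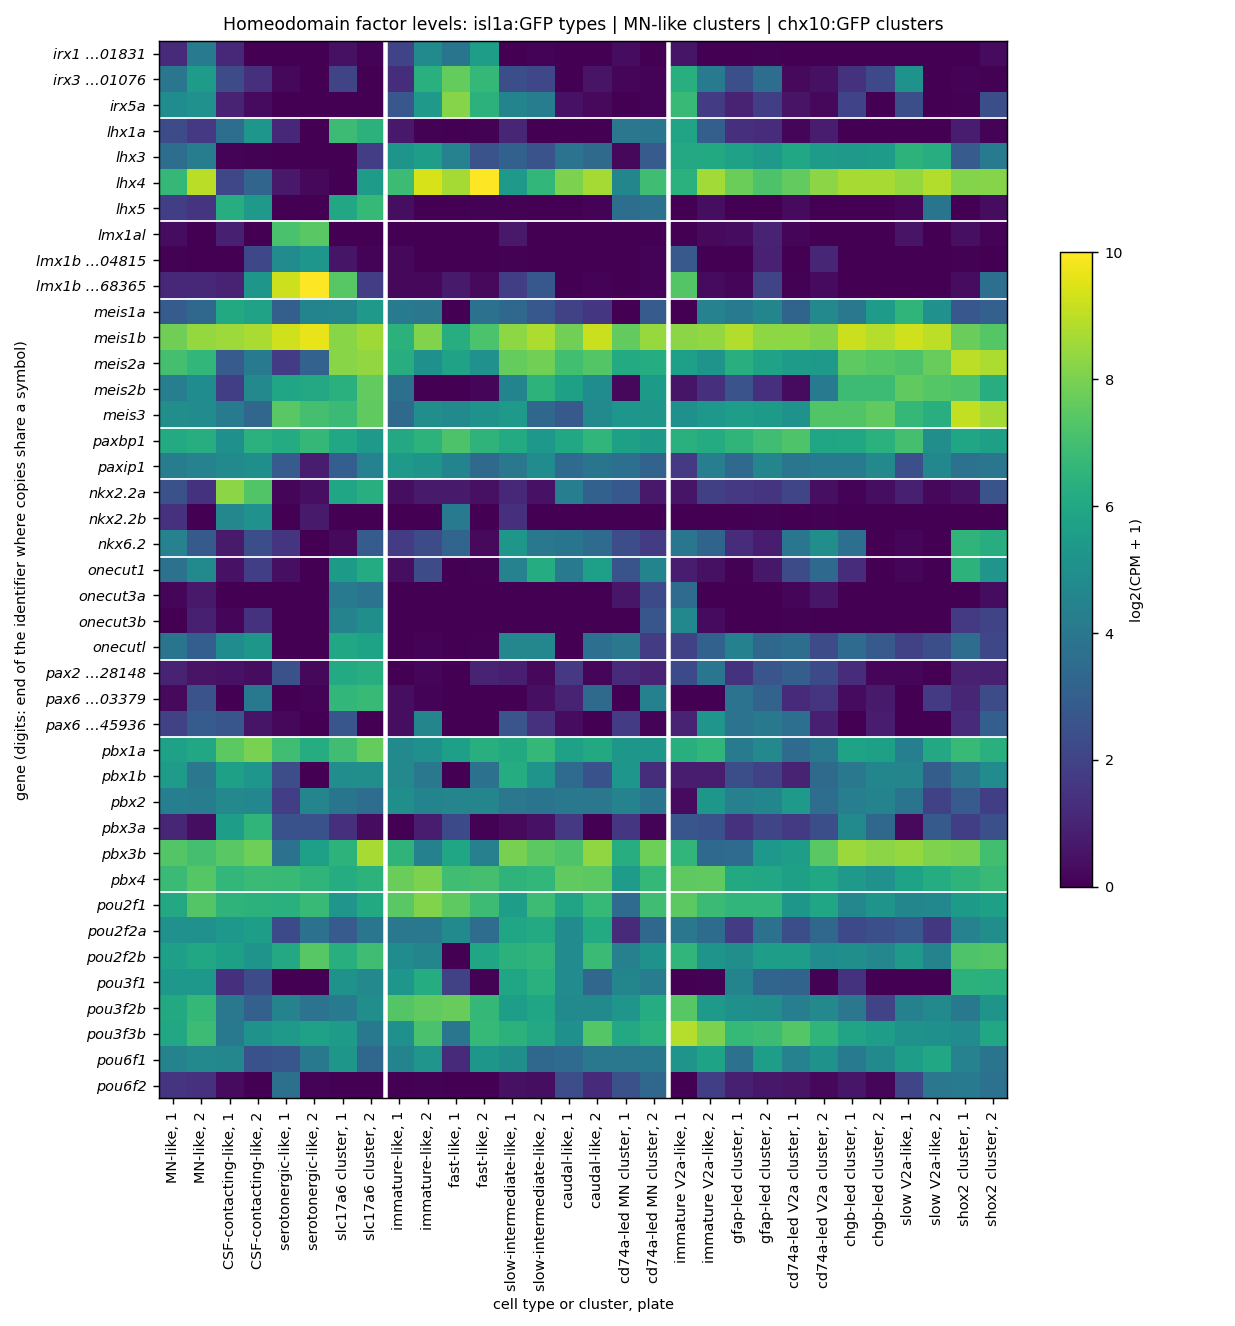
Levels of the 41 members that reached 10 CPM on both plates of at least 1 cluster, as log2(CPM + 1), with clusters and their plates in columns and members grouped by family in rows. Among members with marked differences between clusters, lmx1b and lmx1al stand out in serotonergic-like cells, nkx2.2a and pbx3a in CSF-like cells, irx5a and irx3 in fast-like MNs, and meis2a and meis3 in the shox2 cluster of the chx10 cells, while meis1b and pbx4 are present in every column.

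The first comparison asked which members differed between all passing cells of the 2 lines. Of 84 members tested, 5 were higher and 2 lower in the isl1a plates, against 2.09% and 0.952% of all genes tested (3.04% in either direction). In the same edgeR test 25 members had an unadjusted p under 0.05. Here and below, no share of all genes at this unadjusted limit is given. Such counts therefore show no excess of members over other genes. A call required a Benjamini-Hochberg adjusted p under 0.05 in edgeR's quasi-likelihood test and a difference of at least 0.25 on the log2 scale. The median difference was 0.14 over the members and 0.02 over all genes tested. In sums over a plate, fewer cells of a type and less RNA per cell cannot be told apart.

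Members higher in the isl1a plates were NKX and LIM genes. nkx2.2a, which in the embryo marks the ventral progenitor domain next to the floor plate, had 99.7 and 48.4 CPM in the isl1a plates and 1.36 and 2.24 in the chx10 plates. The isl1a plates both lay far above the chx10 plates, with a log2 difference of 5.37 ± 0.52 (SE, adjusted p = 0.0073, edgeR). Its paralog nkx2.2b had 7.92 and 8.67 CPM against 0 and 0.0168 (edgeR adjusted p = 0.0141). lmx1b, a LIM factor required for serotonergic neurons in mouse and fish, had 83.7 and 89.6 CPM against 7.06 and 3.45, a log2 difference of 4.08 ± 0.44 (adjusted p = 0.00943, edgeR). lmx1al, a gene of the same LIM subfamily, had 15.8 and 13.4 CPM against 0.229 and 0.31 (5.78 ± 0.62, edgeR adjusted p = 0.00944). lhx1a, a LIM factor of many spinal INs and some MNs, had 17.3 and 17.6 CPM against 3.02 and 2.13, without overlap (2.80 ± 0.48, edgeR adjusted p = 0.0377), but its adjusted p lay between 0.0555 and 0.15 when any 1 plate was left out.

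The 2 members lower in the isl1a plates were meis3 and lhx3. meis3, a TALE cofactor of HOX proteins, had 49.8 and 42.5 CPM in the isl1a plates and 208.6 and 152.7 in the chx10 plates, a log2 difference of -1.94 ± 0.28 (edgeR adjusted p = 0.0225). lhx3 had 5.42 and 10.5 CPM against 43.8 and 44.0 (-2.41 ± 0.45, edgeR adjusted p = 0.0472), and without the first or the second chx10 plate its adjusted p was 0.106 and 0.118. lhx4, the close paralog of lhx3, had 50.2 and 297 CPM against 266 and 297, so the isl1a plates differed more from each other than from the chx10 plates. lhx5, paralog of lhx1a, had 29.7 and 19.7 CPM against 0.0624 and 0.831 and missed the threshold (edgeR adjusted p = 0.0561). Among the listed lineage factors outside the families, 10 of 24 tested were higher, among them isl1a, mnx1, gata3 and tal2, and shox2, sox14 and bhlhe22 were lower. Since these cells were sorted on GFP under the isl1a promoter, the difference in isl1a was set by the sorting. Of 14 LIM adaptor and LIM-only genes, lmo3 was lower and none was higher, and none of the 6 other TALE genes was called.

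The second comparison set the MN-like cells of the isl1a plates against all passing cells of the chx10 plates, which are the same chx10 sums as above. None of 76 members tested was called, where 0.0563% of all genes passed as higher and 0.0819% as lower in MN-like cells. This is the count of edgeR's test, which had 16 members at an unadjusted p under 0.05. DESeq2 called 10, with no share of all genes given to set beside it. The biological coefficient of variation between plate sums was 0.702. The median difference was -0.22 over the members and -0.02 over all genes tested.

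meis3 came nearest, with 29.7 and 27.5 CPM in MN-like cells and 208.6 and 152.7 in chx10 cells, a log2 difference of -2.56 ± 0.32 (edgeR adjusted p = 0.0688). The sums of the 2 groups were far apart on both plates. Among the chx10 clusters described below, meis3 had 535 and 402 CPM in the shox2 cluster and 31.6 to 189.5 in the others. The lowest chx10 clusters thus came close to MN-like cells. Plates of the 2 lines share only a number, so a block on it pairs plates with no other link. With the plate number as a block its adjusted p was 0.0208, and over all alternatives the adjusted p ran from 1.67e-08 with DESeq2 to 0.324 without the first chx10 plate. irx5a, an Iroquois factor, had 28.4 and 32.2 CPM in MN-like cells against 5.81 and 2.19, a log2 difference of 3.03 ± 0.59 (edgeR adjusted p = 0.16). irx3 had 14.3 and 43.6 CPM against 8.22 and 7.06 (2.04 ± 0.63, edgeR adjusted p = 0.266), so both Iroquois genes had higher values on both MN-like plates without passing the test. pou3f2b, a class III POU factor of postmitotic neurons, had 66.3 and 99.99 CPM against 26.1 and 29.96 (1.67 ± 0.37, edgeR adjusted p = 0.207).

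lhx3 had 11.1 and 17.8 CPM in MN-like cells and 43.8 and 44.0 in chx10 cells, a log2 difference of -1.50 ± 0.41 (edgeR adjusted p = 0.25). Thus a gene of the shared MN and V2a program was present in both populations, at values that did not overlap and did not pass the test. pbx3a, a PBX cofactor, had 1.079 and 0.298 CPM against 5.53 and 4.71 (-2.82 ± 1.03, edgeR adjusted p = 0.326). nkx6.2, a repressor of the ventral progenitor domains, had 20.4 and 6.08 CPM against 32.9 and 22.98 (-0.99 ± 0.61, edgeR adjusted p = 0.564), and onecut2 had 1.67 and 4.103 against 6.42 and 4.59 (-0.81 ± 0.82, edgeR adjusted p = 0.747). lhx4 differed, since its 266 and 297 CPM in chx10 cells stood against 101 and 502 in the MN-like sums, so the chx10 plates lay between the MN-like plates. Of the 24 lineage factors outside the families, mnx1 was higher in MN-like cells and shox2 and bhlhe22 were lower. The remaining members chosen for their roles in spinal neurons were low or similar in both groups. lhx1b, lhx2a, lhx2b, lhx9, lmx1a, pax8 and both rows of pax3 and pax7 had at most 1.81 CPM on any plate of either line. pbx1a had 51.9 and 61.3 CPM in MN-like cells against 50.8 and 55.2, though the whole isl1a plates had 104 and 124. meis1b had 230 and 344 CPM against 384 and 303, and meis2a had 132 and 98.5 against 218 and 148. Per cell, with at least 5 reads as the limit, 66 of 336 MN-like cells had lhx3, 182 had lhx4 and 48 had both, and of 625 chx10 cells 245 had lhx3, 362 lhx4 and 158 both.

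The third comparison set each type of isl1a cell against the mean of the other 3 types, with the plate as a block. The 4 contrasts share cells and were not independent. In all, 66 members were tested and 10 of them were called in at least 1 type, giving 13 calls as higher and 6 as lower. A fitted log2 difference of a gene with almost no reads elsewhere depends on the prior count, so for such genes the levels and the adjusted p are given.

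**Figure D2:**
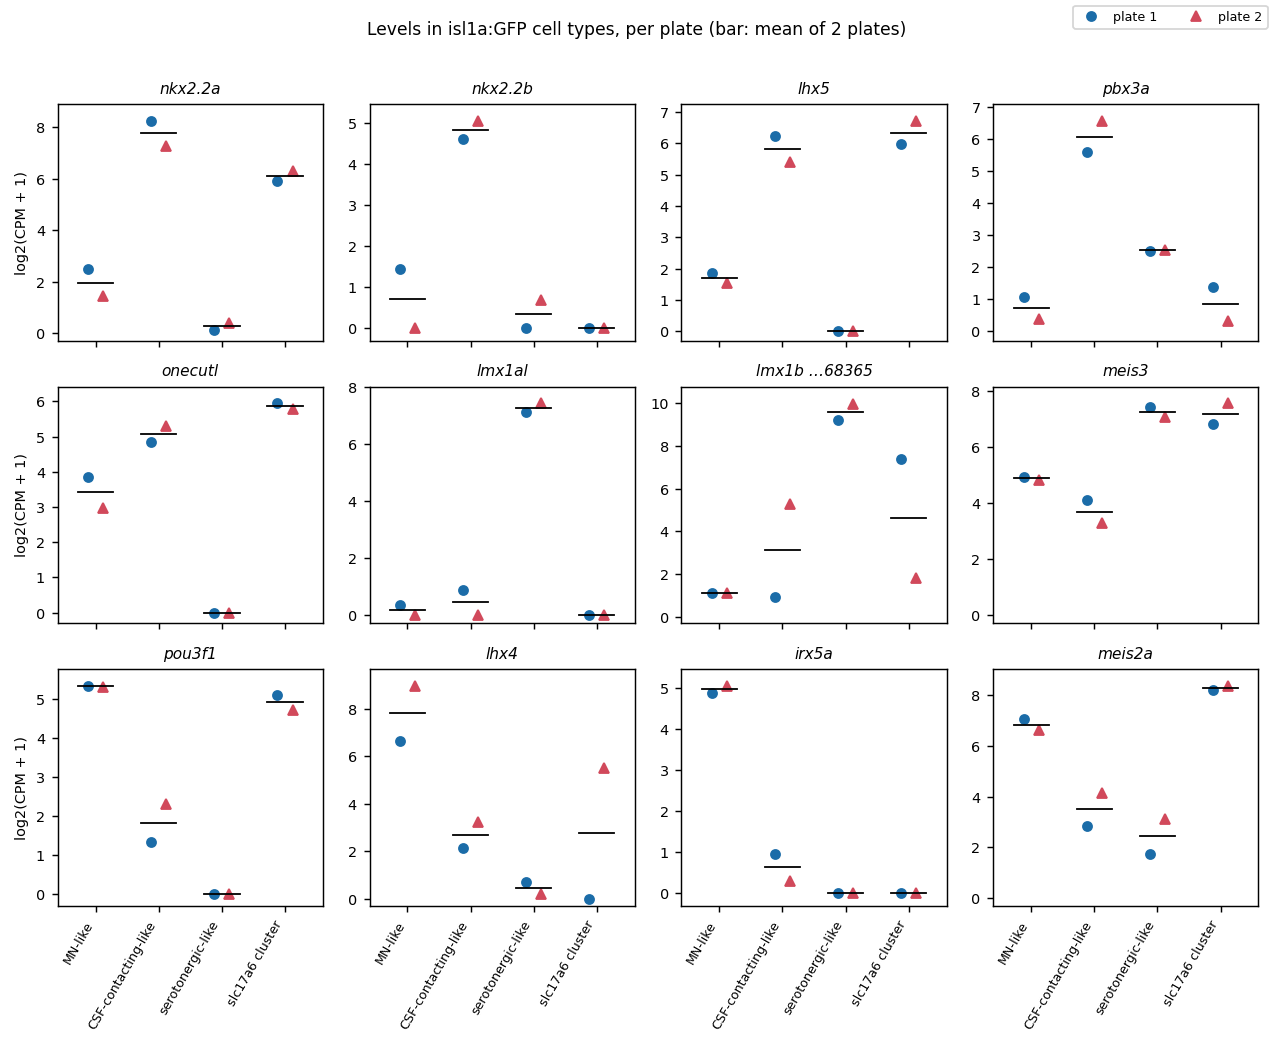
CPM of 12 members in the 4 types of isl1a cells on a log2(CPM + 1) axis, 1 point per plate and a bar at the mean of both plates. nkx2.2a lies at 156 CPM or more on both plates in CSF-like cells, lmx1al at 140 or more in serotonergic-like cells, and irx5a at 28.4 or more in MN-like cells, each against values under 1 CPM on at least 2 plates of other types.

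In CSF-like cells, which touch the central canal and sense its fluid, 4 members were higher and 1 lower, against 1.15% and 0.783% of all genes tested (1.93% in either direction), and 17 members had an unadjusted p under 0.05. nkx2.2a had 303 and 156 CPM in CSF-like cells, 58.9 and 77.4 in the slc17a6 cluster, 4.57 and 1.73 in MN-like cells and 0.0867 and 0.316 in serotonergic-like cells. The CSF-like plates were the highest of the 8 values (6.03 ± 0.48, edgeR adjusted p = 0.00494), and after thinning to an equal depth 51.2% of CSF-like cells had at least 5 reads (82 of 160, exact 95% interval 43.2 to 59.2). nkx2.2b had 23.5 and 32.3 CPM there and at most 1.71 elsewhere, and did not pass (edgeR adjusted p = 0.133). pbx3a had 46.8 and 93.0 CPM in CSF-like cells against 0.251 to 4.81 in the other types (5.97 ± 0.79, edgeR adjusted p = 0.0174).

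lhx5, a LIM factor of spinal INs, had 73.3 and 41.1 CPM in CSF-like cells and 61.5 and 103.5 in the slc17a6 cluster, against 2.65 and 1.91 in MN-like cells. Serotonergic-like cells had no lhx5 read, and the gene was called higher in both former types (edgeR adjusted p = 0.0142 and 0.015) and lower in serotonergic-like cells (0.0139). onecutl, a ONECUT gene, was found in those types as well, with 27.8 and 38.1 CPM in CSF-like cells, 60.6 and 54.3 in the slc17a6 cluster, 13.5 and 6.86 in MN-like cells and no read in serotonergic-like cells. It was called higher in CSF-like cells and the slc17a6 cluster (edgeR adjusted p = 0.0305 and 0.0266) and lower in serotonergic-like cells (0.0178). meis3 was the 1 member lower in CSF-like cells, at 16.1 and 8.73 CPM against 27.5 to 187 in the other types (-2.77 ± 0.45, edgeR adjusted p = 0.0297). meis1a, another TALE gene, was named after its values were seen: it had 67.3 and 52.7 CPM in CSF-like cells and 6.61 to 40.0 elsewhere (2.18 ± 0.50, edgeR adjusted p = 0.0797). Among the lineage factors outside the families, gata2a, gata3, tal1, tal2 and both sox1 rows (a and b copies not told apart) were higher in CSF-like cells. This was of 22 genes tested, and none was lower.

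In serotonergic-like cells 2 members were higher and 5 lower, against 0.621% and 0.475% of all genes tested (1.1% in either direction), with 21 members at an unadjusted p under 0.05. The median difference was -1.67 over the members and -0.25 over all genes tested, the lowest member median of the 4 types. lmx1al had 140 and 171 CPM and at most 0.822 in any other type (edgeR adjusted p = 0.0178). lmx1b had the highest level there, 598 and 1003 CPM, but also 0.916 and 38.1 in CSF-like cells and 167 and 2.51 in the slc17a6 cluster, and did not pass (6.00 ± 1.30, edgeR adjusted p = 0.0843). The other lmx1b row (ENSDARG00000104815) had 27.6 and 36.7 CPM against at most 3.47 elsewhere (edgeR adjusted p = 0.092). Only 3 and 8 serotonergic-like cells had at least 5 reads of this row. Of its reads on each isl1a plate, a single cell held 48.3% and 53.3%. After thinning, 98% of serotonergic-like cells had lmx1b (50 of 51, exact 95% interval 89.6 to 100) and 82.4% had lmx1al (69.1 to 91.6). Of all 60 cells, 58 had lmx1b, 52 lmx1al and 50 both.

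meis3 was the second member called higher in serotonergic-like cells, with 173 and 133 CPM (2.05 ± 0.35, edgeR adjusted p = 0.0418), though the slc17a6 cluster had a like level of 113 and 187. meis1b had 621 and 815 CPM there against 230 to 423 in the other types and just missed the threshold (1.12 ± 0.20, edgeR adjusted p = 0.051). Its relative meis2a went the other way, at 2.34 and 7.73 CPM against 6.22 to 329 (-4.00 ± 0.57, edgeR adjusted p = 0.0231). Lower too were nkx2.2a (edgeR adjusted p = 0.0118) and pou3f1 (0.0326), a class III POU factor with no read in these cells, beside lhx5 and onecutl. Levels of pbx3b, at 12.7 and 48.9 CPM against 86.9 to 417 elsewhere, did not pass (edgeR adjusted p = 0.0806). For lhx5, onecutl and pou3f1 the call thus rests on 0 reads in 31 and 29 cells. Outside the families, gata2a, gata3, shox2 and both sox1 rows were higher and tal1 lower, of 22 genes. A row of the LIM adaptor gene ldb2 (copy not told apart) was higher.

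In the slc17a6 cluster 6 members were higher and none lower, against 0.637% and 0.14% of all genes tested (0.777% in either direction), and 20 members had an unadjusted p under 0.05. meis2a had 296 and 329 CPM in the cluster, 132 and 98.5 in MN-like cells and at most 16.8 in the other types (4.01 ± 0.40, edgeR adjusted p = 0.0107). nkx2.2a was called there as well (3.65 ± 0.47, edgeR adjusted p = 0.026), at levels below those of CSF-like cells, beside lhx5 and onecutl. A single cell held 43.2% and 51.8% of the nkx2.2a reads and 54.8% and 29.3% of the lhx5 reads of the cluster. pou4f1, a class IV POU factor known from sensory neurons, had 69.2 and 5.11 CPM against at most 3.37 (edgeR adjusted p = 0.0266), from 6 cells on the first plate and 1 on the second. pax2, a factor of inhibitory INs, had 68.0 and 74.9 CPM against 0.158 to 4.51 (edgeR adjusted p = 0.0266), from 3 cells on each plate, with 84.3% and 95.3% of its reads in a single cell. lhx1a had 116 and 85.7 CPM against 0 to 37.4 and did not pass (4.71 ± 0.87, edgeR adjusted p = 0.0688), and onecut1 had 42.1 and 69.5 against 0 to 26.5 (4.89 ± 0.93, edgeR adjusted p = 0.0741). The cluster also held markers of GABA neurons, with gad1 (2 rows summed) at 421 and 634 CPM, gad2 at 360 and 133.5 and slc32a1 at 34.5 and 77.4. MN-like cells had 50.9 and 29.2, 50.6 and 29.5, and 15.55 and 2.00, and CSF-like cells had 2878 and 1962, 2877 and 2493, and 198 and 230. The oligodendrocyte markers summed to 1590 and 18850 CPM in this cluster, with plp1b at 10420 and mpz at 4342 on the second plate. The part of either set of markers in these levels was not tested.

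In MN-like cells 1 member was higher and none lower, against 0.403% and 0.117% of all genes tested, with 22 members at an unadjusted p under 0.05. This was pou3f1, with 39.7 and 38.9 CPM in MN-like cells, 33.5 and 25.4 in the slc17a6 cluster, 1.52 and 3.93 in CSF-like cells and no read in serotonergic-like cells (edgeR adjusted p = 0.0458). irx5a, at 28.4 and 32.2 CPM, had at most 0.948 in the other types, but missed the threshold (edgeR adjusted p = 0.0532). Likewise lhx4 had 101 and 502 CPM against 0 to 44.8 (edgeR adjusted p = 0.078) and lhx3 had 11.1 and 17.8 against 0 to 2.51 (0.154). After thinning, 16.4% of MN-like cells had lhx3 (exact 95% interval 12.5 to 21.1) and 54.3% had lhx4 (48.5 to 59.98). Of the 22 other lineage factors tested, isl1a, an isl2 row (copy not told apart), mnx1 and mnx2b were higher and gata3 and tal2 lower. lmo4b was the 1 LIM-only gene higher.

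The fourth comparison set each of 5 MN-like clusters against the mean of the other 4. A fast-like cluster (9 and 46 cells), a slow or intermediate-like cluster (49 and 41), a caudal-like cluster (18 and 37), an immature-like cluster (19 and 57) and a cluster led by the immune gene cd74a (28 and 32) were compared. Markers of fast MNs summed to 3728 and 4120 CPM in fast-like cells, 1609 and 2628 in immature-like cells and at most 401 elsewhere. Slow or intermediate MN markers summed to 4080 and 3161 CPM in the cluster named for them. They summed to 3005 and 2667 CPM in the cd74a-led cluster and 214 to 2133 in the others, so the names are not exclusive. Of 54 members tested, 3 were higher in fast-like cells and none was called in any other cluster, against 0.137% of all genes higher and 0.0686% lower in fast-like cells, 0.405% and 0.0748% in immature-like cells, 0.0374% and none in slow or intermediate-like cells and none in the other clusters. At an unadjusted p under 0.05 there were 13 members in fast-like cells and 10 to 12 in each of the others. The median difference in fast-like cells was -0.45 over the members and -0.15 over all genes tested. The fast-like sum of the first plate rests on 9 cells. In simulated counts of this design, calls included more unchanged genes than the threshold implies, as they did for the shox2 cluster below. When MN-like cells were clustered more coarsely or more finely, 0 and 4 members were called, which shared 0 and 1 of the 3 genes.

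**Figure D3:**
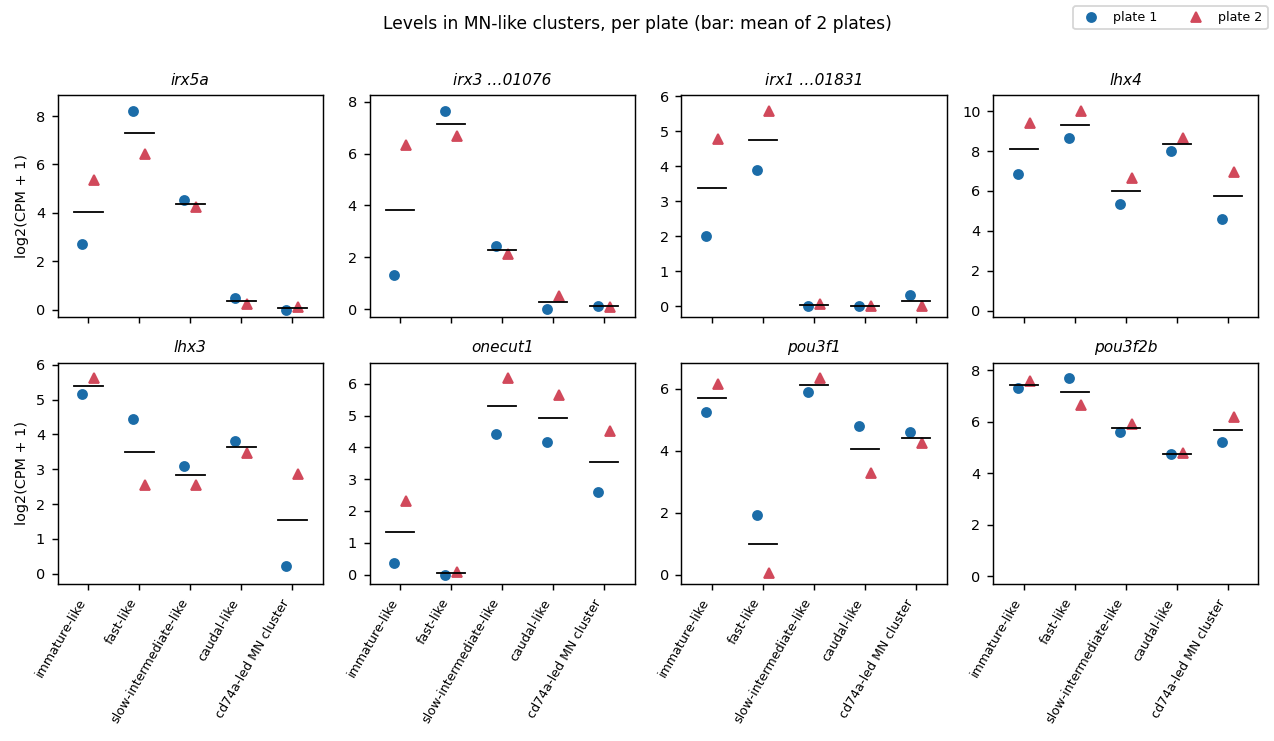
CPM of 8 members in the 5 MN-like clusters on a log2(CPM + 1) axis, 1 point per plate and a bar at the mean of both plates. irx5a and irx3 lie at 85.1 CPM or more on both plates in fast-like cells and under 1 CPM in the caudal-like and cd74a-led clusters, while onecut1 is under 1 CPM in fast-like cells and at 20.6 CPM or more in slow or intermediate-like cells.

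Of 7 IRX rows tested, irx5a and irx3 were higher in fast-like MNs. irx5a had 292 and 85.1 CPM in fast-like cells, 22.03 and 17.9 in slow or intermediate-like cells, 5.55 and 40.2 in immature-like cells, and at most 0.401 in the caudal-like and cd74a-led clusters. Both fast-like values exceeded all others (6.87 ± 0.76, edgeR adjusted p = 0.00599), and 55.1% of fast-like cells had at least 5 reads after thinning (exact 95% interval 40.2 to 69.3). A single cell held 40.3% and 17.4% of the fast-like irx5a reads. irx3 had 197 and 100.2 CPM in fast-like cells, 1.5 and 79.9 in immature-like cells, 4.33 and 3.33 in slow or intermediate-like cells and at most 0.428 elsewhere (edgeR adjusted p = 0.027). irx1 was highest there too, at 13.9 and 46.6 CPM against 3 and 26.4 in immature-like cells and at most 0.255 elsewhere, and did not pass (edgeR adjusted p = 0.0957). Of 55 fast-like cells, 30 had irx5a, 27 irx3 and 19 both. The irx3 copies lie in groups on chromosomes 7 and 25 of the GRCz12tu assembly, with irx5a beside a single copy. Since the copies were not told apart, it is not known whether this irx3 row is the neighbour of irx5a.

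lhx4 had 405 and 1010 CPM in fast-like cells, 259 and 406 in caudal-like cells, 116 and 667 in immature-like cells, 40.4 and 98.2 in slow or intermediate-like cells and 23.1 and 121 in the cd74a-led cluster. Within each plate fast-like cells held the highest value (2.17 ± 0.32, edgeR adjusted p = 0.0278), and 48 of 49 thinned fast-like cells had the gene. lhx3 was not ordered in the same way: it was highest in immature-like cells, at 35.1 and 48.0 CPM, and had 20.9 and 4.87 in fast-like cells, with no call. Of 18 lineage factors and 14 LIM adaptor and LIM-only genes tested, an isl2 row (copy not told apart) was higher in fast-like cells. In immature-like cells isl1a, nkx6.1, lmo3 and lmo4b were higher.

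onecut1 and pou3f1 were low in fast-like cells, without passing the test. onecut1, which in mouse maintains MN and IN identities, had 20.6 and 71.1 CPM in slow or intermediate-like cells and 17.1 and 49.4 in caudal-like cells, against 0 and 0.0507 in fast-like cells (edgeR adjusted p = 0.141 for slow or intermediate-like and 0.0835 for fast-like cells). pou3f1 had 58.7 and 79.9 CPM in slow or intermediate-like cells, 37.5 and 71.1 in immature-like cells and 2.84 and 0.0507 in fast-like cells. meis2a and nkx6.2 also had their highest values in slow or intermediate-like cells, 196 and 235 CPM for meis2a and 38.7 and 14.9 for nkx6.2. pou3f2b differed from pou3f1, with 205 and 101 CPM in fast-like and 158 and 190 in immature-like cells and 25.9 to 71.5 in the other clusters (1.74 ± 0.38 in immature-like cells, edgeR adjusted p = 0.0667).

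The last comparison set each of 6 clusters of chx10 cells against the mean of the other 5. They were a cluster marked by the homeobox gene shox2 (79 and 71 cells), an immature V2a-like cluster (14 and 75), a slow V2a-like cluster (34 and 16), and clusters led by chgb (43 and 32), gfap (60 and 86) and cd74a (70 and 45). Markers of fast V2a INs summed to 4158 and 5204 CPM in the gfap-led cluster, 2703 and 3023 in immature V2a-like cells and 2912 and 1978 in the cd74a-led cluster, against 39.1 to 681 in the other clusters. The MN marker list, which shares the cholinergic genes chata and slc18a3 with the fast V2a list, summed to 3403 and 4366 CPM in the gfap-led cluster. Only 3 of its 6 rows reached 10 CPM there, and mnx1 had 1.32 and 2.00 CPM and isl1a 0.11 and 5.43. The radial glia markers of this cluster summed to 1587 and 3068 CPM. Of 63 members tested, 15 were called in 1 or more clusters, with 17 calls in all, 7 in the shox2 cluster and 10 in immature cells. No member was called in the slow V2a-like, chgb-led, gfap-led or cd74a-led cluster, where 15, 9, 15 and 5 had an unadjusted p under 0.05. Of all genes tested, 0.376% were higher and 0.0215% lower in the chgb-led cluster, 0.0107% were higher in slow V2a-like cells, and none was called in the gfap-led and cd74a-led clusters.

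**Figure D4:**
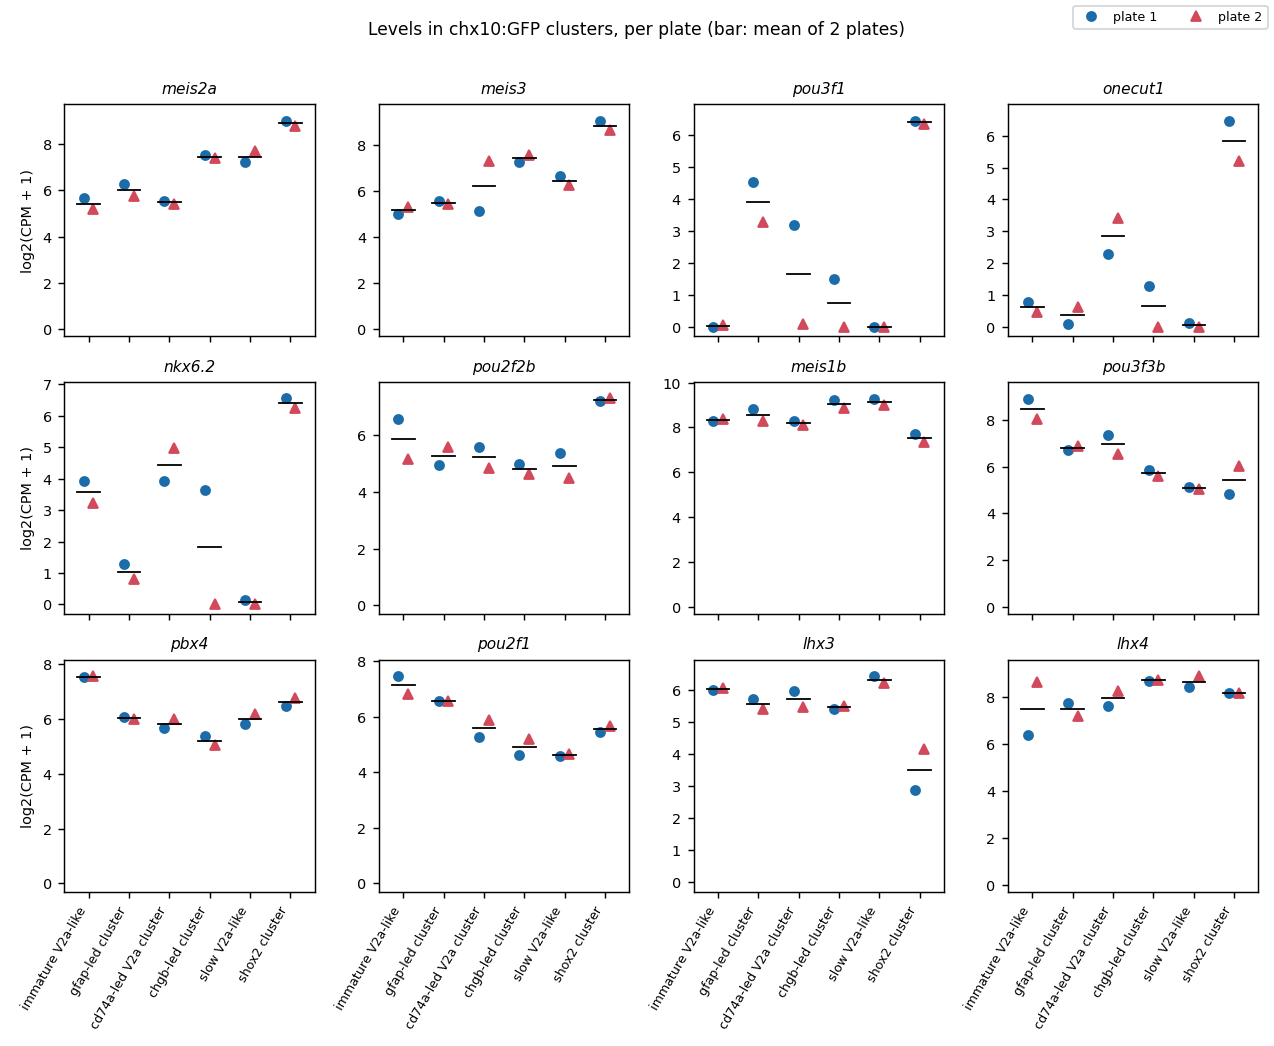
CPM of 12 members in the 6 clusters of chx10 cells on a log2(CPM + 1) axis, 1 point per plate and a bar at the mean of both plates. Both plates of the shox2 cluster lie above all other points for meis2a, meis3, pou3f1, onecut1 and nkx6.2, and both plates of the immature V2a-like cluster lie above all other points for pou3f3b, pbx4 and pou2f1.

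In the shox2 cluster 6 members were higher and 1 lower, against 0.554% and 0.242% of all genes tested, with 16 at an unadjusted p under 0.05. The median difference was 0.51 over the members and 0.29 over all genes tested. meis2a had 509 and 435 CPM in this cluster and 35.6 to 204 in the other clusters, a log2 difference of 2.63 ± 0.22 (edgeR adjusted p = 0.000278). meis3 had 535 and 402 CPM against 31.6 to 189.5 (2.79 ± 0.35, edgeR adjusted p = 0.00337). Of 150 cells in the cluster, 129 had meis2a, 103 meis3 and 101 both. meis1b ran against them, with 208 and 164 CPM against 274.5 to 623 in the other clusters (-1.03 ± 0.21, edgeR adjusted p = 0.0391), and was named after its values were seen, as was pou2f2b below.

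3 further genes were high in the shox2 cluster and low in most others. pou3f1 had 85.9 and 80.5 CPM in the cluster, 21.9 and 8.56 in the gfap-led cluster and at most 8.07 in the others (edgeR adjusted p = 0.00955). onecut1 had 88.3 and 36.2 CPM against at most 9.63 (edgeR adjusted p = 0.0123). nkx6.2 had 92.6 and 74.3 CPM against 14.2 and 30.1 in the cd74a-led cluster, 14.3 and 8.33 in immature cells and at most 11.4 elsewhere (edgeR adjusted p = 0.0268). pou2f2b, an octamer-binding factor, was present in every cluster, at 149 and 157 CPM in this one and 21.4 to 93.7 in the others (2.16 ± 0.39, edgeR adjusted p = 0.0231). lhx3 had its lowest values here, 6.38 and 16.9 CPM against 41.6 to 86.4, and did not pass (-2.19 ± 0.58, edgeR adjusted p = 0.137), while lhx4 had 282 and 287. Outside the families, bhlhe22 was lower, at 82.7 and 113.5 CPM against 187.6 to 1078 in the other clusters. Oligodendrocyte markers summed to 1712 and 11790 CPM in the cluster, and their part in these levels was not tested.

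Within the shox2 cluster, pou3f1 was mostly found in other cells than onecut1 and nkx6.2, which often occurred together. The pairs and sets that follow were chosen after the levels were seen and are descriptions. With at least 5 reads as the limit, 54 of 150 cells had onecut1, 54 had nkx6.2, and 42 had both. pou3f1 was found in 51 cells, of which 8 had onecut1 and 5 had nkx6.2, so 14.8% of cells with onecut1 and 44.8% of cells without it had pou3f1. pou2f2a was found in 40 cells, 31 of them with onecut1 and 5 with pou3f1.

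**Figure D5:**
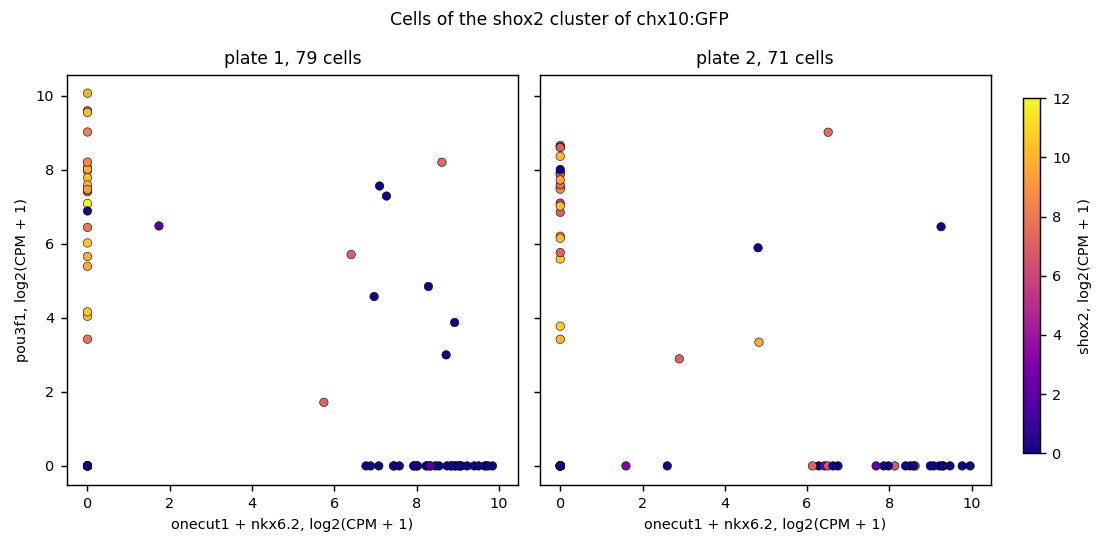
Each point is a cell of the shox2 cluster on the first (79 cells) or second (71 cells) plate, with the summed CPM of onecut1 and nkx6.2 on the x axis and of pou3f1 on the y axis, both as log2(CPM + 1), coloured by the shox2 level. Most cells lie along 1 axis or the other, and shox2 is strong mainly where onecut1 and nkx6.2 are near 0, both in cells with pou3f1 (908 and 554 CPM) and in cells with none of the 3 genes (722 and 372).

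Sorted by these reads, 34 and 23 cells had onecut1 or nkx6.2 only, 22 and 20 had pou3f1 only, 6 and 3 had both and 17 and 25 had neither. shox2 itself had 5.18 and 67.8 CPM in the onecut1 or nkx6.2 cells, 908 and 554 in the pou3f1 cells and 722 and 372 in cells with neither, so the levels of the first set lay below those of the others on both plates. Other members differed between the first and second sets on both plates as well. pou2f2a had 45.0 and 88.7 CPM in onecut1 or nkx6.2 cells and 0.351 and 4.59 in pou3f1 cells. In the same order pou2f2b had 251 and 242 against 61.7 and 111, and pbx1a had 177.9 and 144.5 against 29.97 and 23.17. meis1b had 98.1 and 135 CPM in onecut1 or nkx6.2 cells and 283 and 250 in pou3f1 cells, and pbx3b had 176 and 88.3 against 327 and 213, so meis1b did not overlap between the sets and pbx3b was lower in the first set within each plate, with an overlap across plates. The median cell held 348453 and 332985 reads in the first set, and 404932 and 484740 in the pou3f1 cells. In cells with neither it held 371532 and 277367, and the limit of 5 reads was set on counts without thinning.

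In immature V2a-like cells 7 members were higher and 3 lower, against 2.38% and 2.67% of all genes tested (5.05% in either direction) and 20 members at an unadjusted p under 0.05. Oligodendrocyte markers summed to 5094 and 5871 CPM in these cells and radial glia markers to 796 and 591, and their part in the levels was not tested. The median difference was 0.67 over the members and -0.17 over all genes tested. pou3f3b, a class III POU factor, had 478 and 259 CPM in immature cells and 27.2 to 162 in the other clusters (2.5 ± 0.32, edgeR adjusted p = 0.000727), and 55.4% of thinned cells had it (exact 95% interval 44.1 to 66.3). pbx4, the main PBX gene of the early zebrafish embryo, had 185 and 189 CPM against 32.0 to 109.6 (1.61 ± 0.29, edgeR adjusted p = 0.00627). pou2f1, of which the copy could not be told apart, had 176 and 112 CPM against 23.02 to 95.2 (1.75 ± 0.35, edgeR adjusted p = 0.0124). Lower were meis2a at 49.2 and 35.6 CPM (-1.66 ± 0.30, edgeR adjusted p = 0.0065), meis3 at 31.6 and 38.9 (-1.83 ± 0.47, 0.0452) and meis2b at 0.475 and 1.57 (0.0464), and for all 3 the values overlapped those of the cd74a-led cluster. Outside the families, 2 of 14 LIM adaptor and LIM-only genes and their partners (lmo4b and ssbp3b), 1 of 6 other TALE genes (tgif1) and the lineage factors bhlhe22 and nkx6.1 were higher in immature cells, and none of these lists had a gene called lower.

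The other 4 genes called higher in immature V2a-like cells rested on few cells. irx3 had 75.4 and 16.8 CPM (edgeR adjusted p = 0.041), with 55.5% and 43.9% of its reads in a single cell. On the first plate, which had 14 immature cells, all reads of lhx1a (56.6 CPM) came from 1 cell. All reads of the other irx3 row, ENSDARG00000031138 (46.6 CPM), also came from 1 cell, and whether it was the same cell was not examined. The second plate had 7.25 CPM of lhx1a and 2.39 of this irx3 row (edgeR adjusted p = 0.00931 and 0.0369). lmx1b had 159 and 0.224 CPM (edgeR adjusted p = 0.0416) from 2 cells of the first plate, and without that plate its log2 difference was -0.91.

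The clusters without calls also differed in the levels of some members. meis2b, a TALE gene, had 185 and 163 CPM in slow V2a-like cells, 115 and 115 in the chgb-led cluster and 151 and 74.2 in the shox2 cluster, against 0.239 to 16.8 in the other clusters, and passed in none of the 3. pou3f1 had no read in slow V2a-like cells, and onecut1 and nkx6.2 each had 0.0913 and 0 CPM. pax6, a factor of neural progenitors, had 12.9 and 8.11 CPM in the gfap-led cluster, where the glial gene gfap stood at 273 and 510 CPM. Its second row (ENSDARG00000045936) had 13.1 and 15.3 there. Of these reads, 1 cell held 91.0% and 61.0% for pax6 and 64.85% and 41.05% for the second row. The second row also had 0.951 and 35.9 CPM in immature cells and 11.6 and 0.856 in the cd74a-led cluster. The part of the glial markers in the pax6 level was not tested.

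Across clusters, all 5 MEIS and all 6 PBX genes reached 10 CPM on both plates of at least 1 cluster, as did 4 of 5 ONECUT and 3 of 4 LMX genes, 8 of 17 POU, 4 of 12 LHX, 3 of 11 IRX, 3 of 16 NKX and 3 of 15 PAX genes. meis1b had 74.3 to 815 CPM and pbx4 32.0 to 260 CPM in every cluster and plate. The 3 PAX rows were pax2 and pax6 in the slc17a6 cluster and the second pax6 row in the gfap-led cluster. In the slc17a6 cluster only 2 and 3 cells had at least 5 reads of pax6. Of all pax6 reads on each isl1a plate, a single cell held 96.95% and 47.67%. Thinned to an equal depth within each line, the median isl1a cell had 8 members with at least 5 reads, and the median cell of the slc17a6 cluster had 11. Among chx10 cells, which were thinned to a lower depth and are not compared with isl1a cells, the median was 7 in all, 9 in the shox2 and chgb-led clusters and 4 in the cd74a-led cluster.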

How the data were processed

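Cells were sorted singly into 384-well plates and sequenced by Smart-seq2. The authors aligned reads with STAR 2.5.3a to GRCz11, kept uniquely mapped reads and deposited raw counts of reads per gene and well. The counting program and strand setting are not given in the sources used here. Wells with 2000 to 9000 detected genes and at most 30% ERCC reads were kept. No doublet caller was run, since single cells were sorted.

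Cells were clustered with Seurat 5.3.0 in R 4.3.3 (2000 variable genes without the members and related genes, 10 principal components, resolution 0.6, isl1a plates integrated), and cluster names were given after the leading genes were seen. Counts were added up over the cells of a plate, or of a cluster on a plate, and compared by edgeR 4.0.16 (TMM factors, filterByExpr, quasi-likelihood test). The SE is the log2 difference divided by the square root of F. Comparisons of lines and of MN-like with chx10 cells had no block, and those of clusters had the plate as a block. Each cluster was set against the mean of the others. Adjusted p-values cover all genes fitted for the lines, and otherwise genes not used for clustering. Since clusters were made from the same cells, their contrasts with correlated genes describe the clusters. Shares of cells used counts thinned to 274451 reads in isl1a cells and 208925 in chx10 cells, which left out 63 cells in each, and Clopper-Pearson intervals.

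Members named with values were called members with the largest differences and at least 10 CPM on both plates (up to 12 per direction for MN-like cells, up to 5 per cluster), genes with known roles in spinal neurons, and the member with the smallest p of each family. The members and lists were chosen with earlier results of these data known. Gene names came from RefSeq tables of GRCz12tu. The edgeR fits were tested on simulated counts with known changes. Of genes changed 4-fold, 4.5% to 16% were recovered, and of genes changed 16-fold, 36% to 54.5%, so large differences can go without a call. Between the lines, 1 of 33 calls at 4-fold and 8 of 117 at 16-fold were unchanged genes. In the other comparisons, and at 16-fold between the lines, the share of unchanged genes among the calls was above the one the threshold implies. At 4-fold it was 7 of 16 in the MN-like comparison and 18 of 48 in fast-like cells. It was 16 of 48 in the shox2 cluster and 8 of 35 in CSF-like cells. At 16-fold the counts in the same order were 9 of 118, 18 of 105, 10 of 82 and 14 of 93. Alternatives were DESeq2 1.42.0, limma 3.58.1 on mean CPM, other size factors, filters, blocks and resolutions, and leaving out plates. Some lineage factors outside the families are not reported here.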

Additional observations from a re-analysis of the deposited data

How the results depend on the processing

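DESeq2 made more calls of members, counted over all contrasts, than edgeR in every comparison: 22 against 7 between the lines, 10 against 0 between MN-like and chx10 cells, 66 against 19 over the isl1a types, 25 against 3 over the MN-like clusters and 40 against 17 over the chx10 clusters. Leaving out 1 plate gave 5 to 9 calls between the lines and 0 to 5 between MN-like and chx10 cells, with 5 without the first isl1a plate and 1 without the second. The lone plate left is then assumed to vary like those of the other line. Without a filter on low counts there were 3 calls between MN-like and chx10 cells, 44 over the isl1a types, 27 over the MN-like clusters and 36 over the chx10 clusters. limma on mean CPM gave 1 call between MN-like and chx10 cells. Adjusting over all genes gave 29 calls over the isl1a types and 5 over the MN-like clusters. Resolution 0.4 gave 0 calls over the MN-like clusters and 11 over the chx10 clusters, the latter in 7 members, sharing 0 of 3 and 6 of 15 members. Resolution 0.8 gave 5 calls in 4 members and 16 in 14, sharing 1 of 3 and 14 of 15. The cause of these differences was not tested. Shares of all genes called under these settings are not given here, so the counts describe the settings and not the members. Among the values of single genes and shares counted here, 320 kept their side of the threshold or stayed inside their interval. Another 16 passed newly, 8 were lost, 3 shares moved and 1 turned. The last was lmx1b (ENSDARG00000068365) in immature V2a-like cells without replicate 1, at -0.91, against 7.22 without replicate 2. Between the lines this count covered only called members, and between MN-like and chx10 cells mainly those with a low p. Of all named members, 11 of 43 between the lines turned direction in some alternative. Between MN-like and chx10 cells 12 of 42 did, with lhx4, meis1b, onecut1 and pbx3b among them in both comparisons. With at least 1 read as the limit the shares were 26.0% for lhx3 in MN-like cells, 60.6% for nkx2.2a in CSF-like cells and 69.4% for irx5a in fast-like cells. Leaving out the gfap-led and cd74a-led clusters, an alternative chosen after seeing the data, left 0 members called between MN-like and chx10 cells, with 19 at an unadjusted p under 0.05.

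With the replicate block on the plate numbers, 10 members were called between the lines and 1, meis3, between MN-like and chx10 cells. The plates of the 2 lines share only a number: deviations of same-numbered plates correlated at 0.00289 and 0.0376. Without the block, 20 calls were made over the isl1a types, 1 over the MN-like clusters and 18 over the chx10 clusters.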

Other observations

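The slc17a6 cluster of the isl1a line, 54 cells over both plates, held members that occurred in different cells. The pairs were chosen after the levels were seen, and the counts use at least 5 reads as the limit and carry no test. pou4f1 and lmx1b (ENSDARG00000068365) were found in the same 7 cells, 6 on the first plate and 1 on the second. lhx1a was found in 17 cells and lhx5, its paralog, in 14, with 10 cells holding both and none of either with pou4f1. nkx2.2a was found in 9 cells, of which 7 had meis1a and 7 had onecut1, 1 had lhx1a and none had lhx5 or pou4f1.

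In CSF-like cells of the same line, of which there were 172, nkx2.2a was found in 89 and pbx3a in 75, with 42 holding both. lhx5 was found in 31 of these cells, 19 of them with nkx2.2a, and nkx2.2b in 21, 11 of them with nkx2.2a.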
